A study of Rattus norvegicus with 20 samples.

Results

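Vocal folds collected 1 week after surgical injury were compared with uninjured folds, using 10 of the 20 arrays of the study, 5 in each group. The groups were chosen by the time given in the sample labels, and the comparison took in every probe set that the platform annotation pairs with a single gene symbol, 15049 probe sets for 15037 genes out of 24871 rows. All animals were adult male Sprague-Dawley rats, and 1 array was run for each animal. The control folds came from untreated rats. In the injured rats the lamina propria, the connective tissue layer under the epithelium, had been separated from the thyroarytenoid muscle and removed 1 week before the tissue was taken. The methods describe the injury as unilateral or bilateral, whereas the labels state that both folds were dissected, so the share of injured tissue in a sample is not known. No sham-operated group was analysed here, and the effect of the operation itself cannot be told apart from that of the injury. The methods name the Clariom S array and labelled cDNA, and the labels the Clariom D array and labelled cRNA.

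The vocal fold is a stratified squamous epithelium over a lamina propria rich in collagen, elastin and hyaluronan, with the vocal muscle beneath it and mucous glands nearby. After a wound, fibroblasts enter the defect and secrete a provisional matrix of fibronectin and matricellular proteins, which is followed by fibrillar collagen and by crosslinking of the new fibres. Damaged muscle fibres are replaced by satellite cells, which fuse into new fibres and pass through an embryonic program of contractile proteins.

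A marker of each of 3 tissues was bright in both groups. Krt15, a basal keratin of squamous epithelium, averaged 11.04 ± 0.21 log2 units (SD, n = 5) in controls and 11.36 ± 0.13 (SD, n = 5) at 1 week. Acta1, skeletal muscle actin, averaged 11.43 ± 0.75 and 11.38 ± 0.14 (SD, n = 5 each), and decorin (Dcn), a proteoglycan of loose connective tissue, 11.66 ± 0.17 and 11.72 ± 0.15 (SD, n = 5 each). None of these 3 genes passed the test (limma adjusted p = 0.077, 0.94 and 0.73), but Krt15 passed without control replicate 3 (adjusted p = 0.04). Other markers of the lamina propria, Col1a1, Col3a1 and Lum, rose by 1.80, 1.60 and 1.37 log2 units, as given below.

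Some arrays and some technical readouts stood apart from the rest. Control replicate 3 had an array median of 4.58 log2 units, against 4.87 to 4.94 in the other controls and 4.83 to 4.89 at 1 week. Its mean over 28 adult sarcomere genes was 7.35, against 8.66 to 9.54 in the other controls and 8.60 to 8.93 at 1 week. The hybridization controls, transcripts spiked into each sample in fixed amounts, averaged 8.84 to 9.59 log2 units on control arrays and 10.01 to 10.44 on 1-week arrays, without overlap. Background probes averaged 2.60 to 2.90 and 3.17 to 3.61. The part of these readouts in the differences below was not tested, and where a term for the hybridization controls was added to the fit it could hardly be told apart from the group.

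Of the 15049 probe sets, 3209 (21.3%) differed between 1 week and control at an adjusted p under 0.05 in limma, a linear model with moderated variances, adjusted by Benjamini-Hochberg. Of these 1681 (11.2%) were higher and 1528 (10.2%) lower at 1 week. A change of at least 1 log2 unit was seen for 162 (1.08%) of the higher and 271 (1.8%) of the lower probe sets. The median change over all probe sets was 0.02 log2 units. Without control replicate 3 the split turned to 1428 higher and 2538 lower. With the hybridization controls as a covariate 82 probe sets passed, 20 higher and 62 lower.

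Genes of the extracellular matrix were higher at 1 week. Of 12 measured fibrillar and associated collagens 11 rose and none fell, with a median of 1.26 log2 units. Of 15 elastic fibre genes 9 rose (median 0.75), of 18 matricellular and adhesive glycoproteins 11 rose (median 0.78), of 10 small leucine-rich proteoglycans 3 rose (median 0.48), and of 21 collagen folding and crosslinking genes 12 rose and 1 fell (median 0.64). These shares stand beside 11.2% of all probe sets that rose. In all, 46 genes of these 5 lists rose, and in 34 of them the groups did not overlap. Of the 1681 probe sets that rose, 1072 did not overlap (7.12% of all 15049). With the hybridization control covariate, 1, 2, 3, 1 and 1 genes of the lists rose, in the order above.

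Cthrc1, a secreted protein of wound fibroblasts, read 5.15, 4.66, 4.70, 4.75 and 5.20 log2 units in the 5 controls and 8.64, 8.19, 9.07, 6.34 and 7.92 in the 5 animals at 1 week. All injured animals lay above all controls, and replicate 4 was the lowest of the injured. The rise was 3.14 log2 units (SE 0.33, 8.81-fold, adjusted p = 3.9e-06), and 3.81 (adjusted p = 0.016) with the hybridization control covariate. Thrombospondin 2 (Thbs2), a matricellular regulator of collagen fibril assembly, read 4.14, 4.03, 5.15, 4.20 and 4.30 in controls and 7.70, 7.26, 8.10, 6.17 and 6.91 at 1 week. Here too the groups did not overlap, and the highest control was replicate 3. The rise was 2.87 log2 units (SE 0.29, 7.29-fold, adjusted p = 3.4e-06).

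Periostin (Postn), which links collagen to other matrix proteins, read 7.38, 7.44, 7.03, 8.04 and 6.97 in controls and 10.29, 9.90, 10.47, 8.92 and 9.93 at 1 week, a rise of 2.53 log2 units (SE 0.32, adjusted p = 2.5e-05). The injured animals again lay above every control, with replicate 4 lowest. Elastin (Eln), the core of the elastic fibre, read 6.85, 7.43, 7.23, 7.45 and 7.37 in controls and 9.37, 10.04, 9.84, 9.02 and 9.82 at 1 week. Both groups were tight, and they lay more than a log2 unit apart. Eln rose by 2.35 log2 units (SE 0.20, 5.09-fold, adjusted p = 3.7e-07). Asporin (Aspn), a leucine-rich proteoglycan that binds collagen, read 6.32, 6.47, 5.86, 7.06 and 6.39 in controls and 9.33, 8.69, 9.56, 7.94 and 9.07 at 1 week, a rise of 2.50 (SE 0.27, adjusted p = 5.2e-06).

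The fibrillar collagens were already bright in uninjured folds. Col1a1 read 8.61, 8.60, 8.21, 8.95 and 8.35 in controls and 10.32, 10.66, 10.28, 10.20 and 10.25 at 1 week, a rise of 1.80 log2 units (SE 0.20, adjusted p = 8.3e-06). Col3a1, the collagen of early granulation tissue, read 9.46, 8.92, 8.42, 9.44 and 9.17 in controls and 10.78, 10.90, 10.71, 10.39 and 10.63 at 1 week, a rise of 1.60 (SE 0.20, adjusted p = 2e-05). The injured animals lay within a narrow range for both genes, above all controls. Col1a2 rose by 0.93, Col5a1, which nucleates fibrils, by 1.47, Col6a2 by 1.43 and Col8a1 by 1.86 log2 units (adjusted p = 0.0027, 1.7e-06, 8.3e-06 and 0.00021). Col14a1, a fibril-associated collagen, rose by 1.01 (adjusted p = 0.0056), with 1-week replicate 4 inside the control range.

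**Figure D1:**
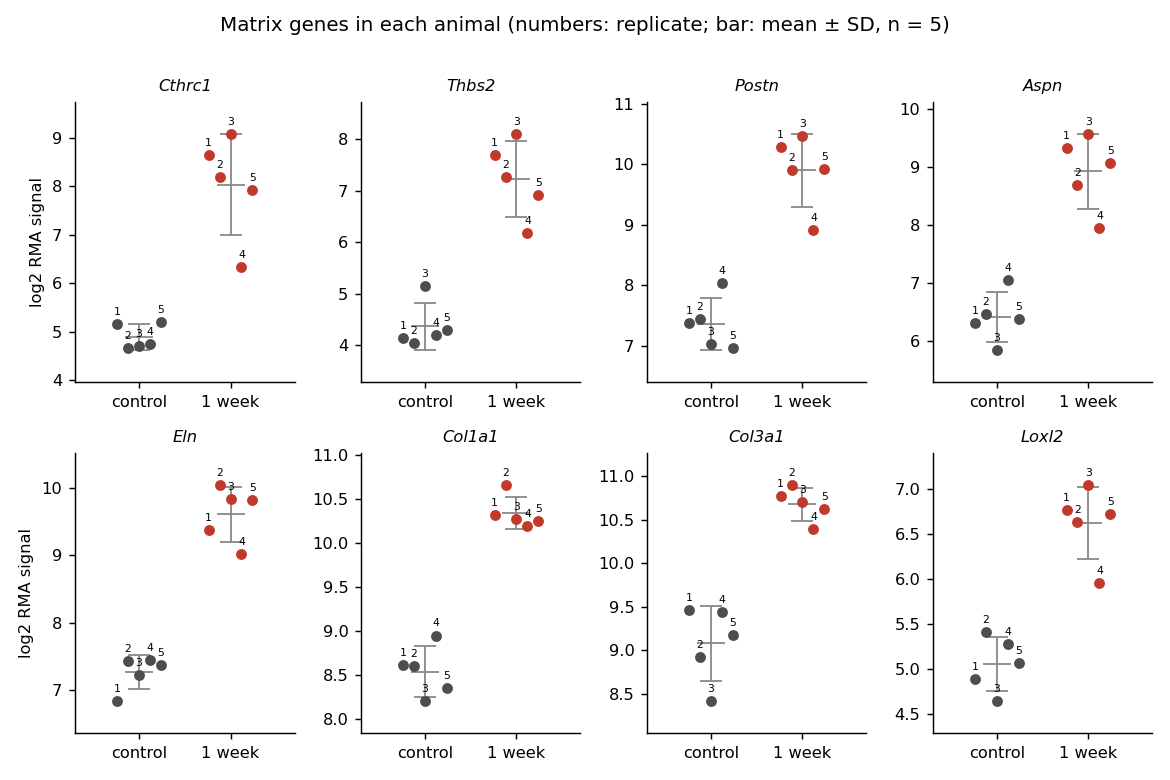
Log2 RMA signal of 8 matrix genes in each animal, with controls and 1-week animals side by side, points numbered by replicate and the mean ± SD of 5 animals. In all 8 panels every 1-week animal lies above every control, for Cthrc1 from 6.34 upward against at most 5.20.

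Other glycoproteins and elastic fibre parts moved less. Lumican (Lum), which spaces collagen fibrils, rose by 1.37 log2 units and fibronectin (Fn1) by 0.88 (adjusted p = 0.00018 and 0.0036). Fibrillins 1 and 2 (Fbn1, Fbn2), the microfibril scaffold of elastin, rose by 1.13 and 1.00, Mfap5 by 1.03 and Ltbp2, a microfibril-associated protein, by 1.23 (adjusted p = 0.00042, 0.0027, 0.0015 and 0.00019). Sparc, a collagen-binding glycoprotein, rose by 0.74 (adjusted p = 0.0041). Osteopontin (Spp1) rose from 3.41 ± 0.19 to 4.98 ± 0.44 (SD, n = 5 each, adjusted p = 0.00028). Its control mean lay above that of the background probes (2.70) but below that of the array's negative control probes (3.80). At 1 week its mean lay above both (3.39 and 3.55). Decorin, the brightest proteoglycan, changed by 0.07 log2 units (95% interval -0.19 to 0.32), and the sign turned with the hybridization control covariate (-0.07).

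The enzymes that mature collagen rose alongside their substrates. Loxl2, a lysyl oxidase that crosslinks collagen, read 4.89, 5.41, 4.65, 5.28 and 5.07 in controls and 6.76, 6.63, 7.04, 5.95 and 6.72 at 1 week, a rise of 1.56 log2 units (SE 0.19, adjusted p = 1.4e-05) with no overlap. Serpinh1, the collagen chaperone of the endoplasmic reticulum, rose by 1.58, the lysyl hydroxylase Plod2 by 1.52 and Loxl1, which acts on elastin, by 1.32 (adjusted p = 8.3e-06, 0.00018 and 2.4e-05). The exception was P3h2, a prolyl hydroxylase, which fell by 0.94 log2 units (adjusted p = 0.00098).

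Among 46 matrix genes that rose, 1-week replicate 4 had the lowest signal of the injured animals in 33. Replicate 3 was the highest in 20 and replicate 2 in 17. Replicate 4 was also the lowest of the injured animals in the mean of 20 of all 47 gene lists. Its array had the lowest upper quartile of the 1-week group (6.06 log2 units, against 6.15 to 6.23) and the highest hybridization control mean (10.44), and the part of these in its lower matrix signals was not tested.

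The promoters of 3 genes that rose are shown because their start sites lie in the reference table and the genes stand for new matrix (Postn) and embryonic muscle (Myh3, Myl4). Each is the stretch of 250 bases before the annotated start, from RefSeq on rat build GRCr8, read 5′ to 3′ on the plus strand, at chr2:140677811-140678060, chr10:52268935-52269184 and chr10:89975900-89976149. Capitals mark TATAAA, on either strand, and the palindromic E-box pattern CANNTG.
Postn: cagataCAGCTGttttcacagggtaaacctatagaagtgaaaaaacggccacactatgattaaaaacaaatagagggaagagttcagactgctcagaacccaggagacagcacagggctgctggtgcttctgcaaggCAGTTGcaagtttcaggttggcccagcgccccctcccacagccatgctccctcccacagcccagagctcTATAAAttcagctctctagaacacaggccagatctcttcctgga
Myh3: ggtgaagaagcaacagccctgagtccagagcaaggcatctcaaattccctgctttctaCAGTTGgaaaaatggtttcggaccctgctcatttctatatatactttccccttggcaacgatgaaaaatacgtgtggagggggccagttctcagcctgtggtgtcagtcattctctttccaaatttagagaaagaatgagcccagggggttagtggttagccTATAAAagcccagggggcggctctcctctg
Myl4: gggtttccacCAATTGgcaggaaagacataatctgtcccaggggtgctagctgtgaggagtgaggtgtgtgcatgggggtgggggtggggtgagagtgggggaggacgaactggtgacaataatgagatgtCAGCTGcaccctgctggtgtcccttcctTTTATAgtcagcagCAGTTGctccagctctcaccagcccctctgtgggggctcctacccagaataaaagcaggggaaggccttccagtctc

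TATAAA was found in 11.2% of 12435 promoters of this length and in 3 of the 30 matrix genes that rose and had an entry. CANNTG was found in 60.8% of all and in 15 of those 30 (50.0%). These matches describe the letters only, and the shares among the matrix genes were near those of all promoters.

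Of 28 matrix proteases and inhibitors 10 rose and 2 fell, beside 11.2% and 10.2% of all probe sets. The list median was 0.40 log2 units. Mmp14, a membrane collagenase, rose by 0.96, Mmp2, a gelatinase, by 0.87 and Mmp3, stromelysin, by 1.67 (adjusted p = 0.0031, 0.002 and 0.015). The aggrecanases Adamts4 and Adamts5 each rose by 0.93 (adjusted p = 0.0006 and 0.0018). Both genes that fell encode tissue inhibitors of metalloproteases. Timp4 read 6.45, 5.81, 5.08, 5.90 and 5.66 in controls and 4.33, 4.22, 4.34, 4.04 and 4.23 at 1 week, without overlap, a fall of 1.54 log2 units (log2 fold change -1.54, SE 0.25, adjusted p = 0.00021). Timp3 fell by 0.62 (adjusted p = 0.022), a call lost without control replicate 2 or 4 (adjusted p up to 0.057).

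Hyaluronan genes gave few calls. Of 15 measured, none fell (3 without control replicate 3) and 1 rose, beside 10.2% and 11.2% of all probe sets. The gene that rose was Tnfaip6, whose product couples hyaluronan to carrier proteins (0.85 log2 units, adjusted p = 0.028). Its call was lost in 5 of 10 fits that each left out 1 array, those without control replicates 1 or 2 or 1-week replicates 2, 3 or 5 (adjusted p up to 0.089). The hyaluronan receptor Cd44, the brightest of the list, changed by -0.36 (adjusted p = 0.13).

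Of 13 cartilage genes 7 rose and none fell, beside 11.2% and 10.2% of all probe sets. When 1 array was left out, 4 to 6 rose. Cartilage surrounds the fold, and its genes overlap those of the healing matrix. Col2a1, the main cartilage collagen, rose from 5.40 ± 0.20 to 6.70 ± 0.41 and Col9a2 from 4.40 ± 0.22 to 5.48 ± 0.35 (SD, n = 5 each, adjusted p = 2.3e-05 and 0.00013). Cilp, a cartilage layer protein that is also made by fibroblasts, rose by 1.99 (adjusted p = 0.002). Aggrecan (Acan) and chondromodulin (Cnmd) rose by 0.96 and 1.33 (adjusted p = 0.046 and 0.023). The Acan call was lost in 7 of the 10 fits, all but those without control replicates 1 or 3 or 1-week replicate 1, and the Cnmd call in 4, those without control replicates 2 or 5 or 1-week replicates 2 or 5. The mean over the list ran from 4.41 to 5.16 in controls and from 5.44 to 5.80 at 1 week, and its part in the matrix result was not tested. In bulk samples such as these, fewer cells of a type and less RNA per cell cannot be told apart.

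**Figure D2:**
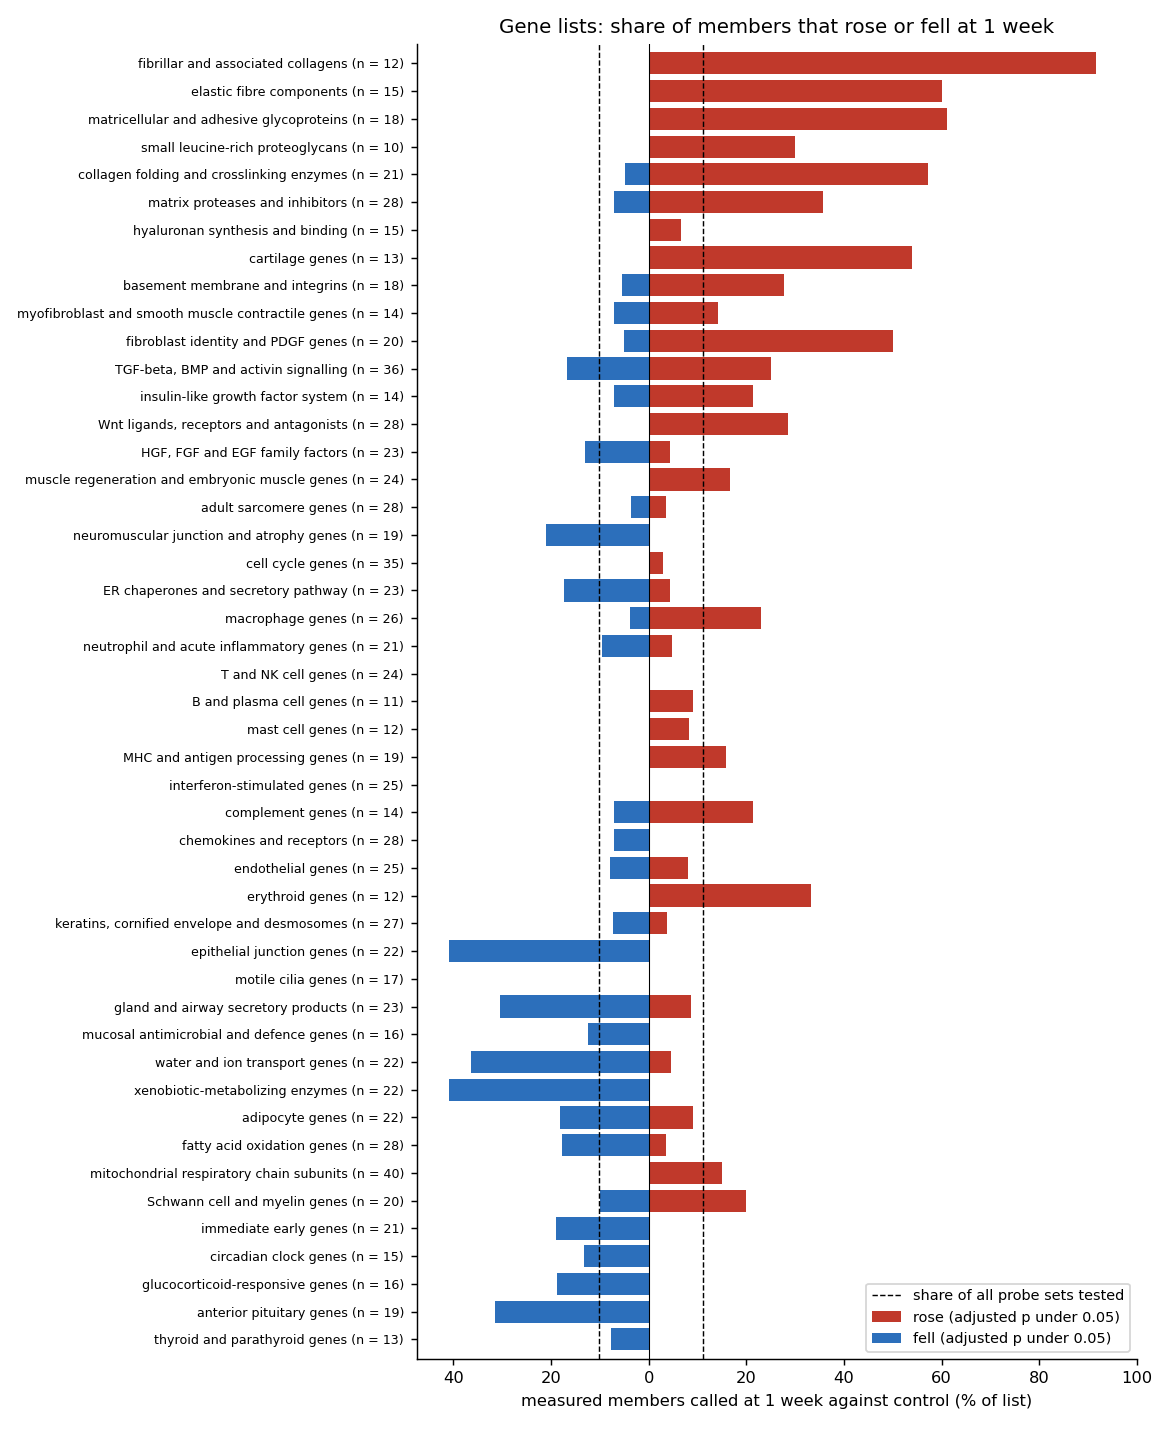
Share of the measured members of each gene list that rose (right) or fell (left) at 1 week, in percent, with dashed lines at the shares over all probe sets, 11.2% for rises and 10.2% for falls. Fibrillar collagens have the longest bar to the right, with 11 of 12 genes.

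Genes of fibroblasts rose with the matrix. Of 20 fibroblast identity and PDGF genes 10 rose and 1 fell (median 0.56 log2 units), beside 11.2% and 10.2% of all probe sets. S100a4, a calcium-binding protein of motile fibroblasts, rose by 1.44, Lrrc15, a marker of activated fibroblasts, by 1.87, Twist1, a mesenchymal transcription factor, by 0.98 and Lrrc17 by 0.97 (adjusted p = 0.00013, 0.0065, 0.0016 and 0.0055). The ligand gene Pdgfc fell by 0.65 (adjusted p = 0.0031). The contractile genes behaved otherwise. Of 14, 2 rose and 1 fell, beside 11.2% and 10.2% of all probe sets. Acta2, smooth muscle actin and the usual myofibroblast marker, named here outside the rule, changed by 0.04 log2 units (95% interval -0.28 to 0.35). Its sign turned under several settings. Calponin 3 (Cnn3) rose by 0.82 and smooth muscle myosin (Myh11) fell by 1.08 (adjusted p = 0.00054 and 0.0017).

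Signalling genes moved both ways. Of 36 TGF-beta, BMP and activin genes 9 rose and 6 fell, beside 11.2% and 10.2% of all probe sets. Without control replicate 3, 5 rose and 11 fell. Those that rose included Fstl1, a secreted follistatin-like glycoprotein (1.41 log2 units, adjusted p = 1.6e-05), Id3, a target of BMP signalling (1.05, adjusted p = 0.00083), and the BMP antagonists chordin (Chrd, 0.82, adjusted p = 0.00037) and noggin (Nog, 0.56, adjusted p = 0.015). The sign of Nog turned with the hybridization control covariate (-0.15). The BMP ligands Bmp7 and Bmp6 fell by 0.80 and 0.78 and the receptors Bmpr1b, Bmpr2 and Tgfbr3 by 0.86, 0.81 and 0.65 (adjusted p = 0.006, 0.029, 0.003, 0.0025 and 0.026). The Bmp6 call was lost in 6 of the 10 fits without 1 array (control replicates 1, 2 or 4 or 1-week replicates 2, 3 or 5) and the Tgfbr3 call in 5 (control replicates 1, 2 or 4 or 1-week replicates 3 or 4).

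In the insulin-like growth factor system Igfbp6, a binding protein that prefers IGF-II, read 6.49, 6.08, 6.09, 6.32 and 6.11 in controls and 8.27, 8.14, 8.00, 8.02 and 8.00 at 1 week. The groups were tight and far apart, and the rise was 1.87 log2 units (SE 0.23, adjusted p = 1.9e-05). The ligand gene Igf2 rose by 1.19 and Igfbp4 by 0.72 (adjusted p = 0.0034 and 0.0028). C1qtnf2, a secreted C1q-like protein, rose by 1.96 (adjusted p = 9.2e-06). Of 28 Wnt genes 8 rose and none fell, beside 11.2% and 10.2% of all probe sets. Without control replicate 5, 5 rose, and without control replicate 3 there were 2 falls. The antagonists Sfrp4 and Dkk2 rose by 1.08 and 0.93 and the ligand Wnt16 by 0.80 (adjusted p = 0.014, 0.014 and 0.0048). In the HGF, FGF and EGF families 1 gene of 23 rose and 3 fell, beside 11.2% and 10.2% of all probe sets. Without control replicate 3, 5 of these genes fell. The epithelial growth factor gene Egf fell by 1.07, neuregulin 1 (Nrg1) by 0.91 and the HGF receptor Met by 0.70 (adjusted p = 0.006, 0.0021 and 0.011).

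In muscle a few genes of embryonic fibres rose, and most muscle genes did not pass. Myh3, embryonic myosin heavy chain, read 5.79, 5.58, 5.35, 5.77 and 6.21 in controls and 8.08, 8.55, 10.19, 6.74 and 6.98 at 1 week. The groups did not overlap, and replicate 3 was far above the other injured animals. The rise was 2.37 log2 units (SE 0.42, 5.16-fold, adjusted p = 0.00054). With the hybridization control covariate Myh3 did not pass (adjusted p = 0.14). Myl4, the embryonic light chain, read 5.08, 5.65, 4.28, 6.26 and 6.82 in controls and 7.85, 7.73, 9.54, 6.87 and 6.97 at 1 week, a rise of 2.17 (SE 0.55, adjusted p = 0.0073). It too was highest in replicate 3.

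Of 24 muscle regeneration and embryonic muscle genes 4 rose and none fell, beside 11.2% of all probe sets that rose, and 20 did not pass. Without control replicate 3, 3 rose and 1 fell. Tnnt2, the cardiac troponin T that immature muscle fibres also make, read 4.46, 3.60, 3.66, 3.28 and 4.21 in controls and 4.81, 5.37, 7.89, 4.61 and 4.19 at 1 week (1.53 log2 units, adjusted p = 0.015). The groups overlapped, and replicate 3 stood above the rest. Myogenin (Myog), the transcription factor of fusing myoblasts, rose by 0.93 (adjusted p = 0.03), a call lost without control replicates 1, 3 or 4 or 1-week replicates 2 or 3 (adjusted p up to 0.093). Its sign turned with the hybridization control covariate (-0.07).

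Of 28 adult sarcomere genes 1 rose and 1 fell (median -0.04 log2 units), beside 11.2% and 10.2% of all probe sets. Without control replicate 3, 1 rose and 2 fell (median -0.29). Tnnc1, the troponin C of slow and cardiac muscle, rose by 1.55 (adjusted p = 0.024), from 4.42 ± 0.25 to 5.97 ± 1.67 (SD, n = 5 each), with replicate 3 at 8.70, and its call was lost without control replicate 2 (adjusted p = 0.053). Myl3, the slow light chain, fell by 1.13 (adjusted p = 0.013), and by 1.55 (log2 fold change -1.55) without control replicate 3, where it read 3.86. Of 19 neuromuscular junction and atrophy genes 4 fell and none rose, beside 10.2% and 11.2% of all probe sets. Without control replicate 3, 7 fell. The acetylcholine receptor subunit genes Chrnb1 and Chrne fell by 1.47 and 1.44 (adjusted p = 0.0023 and 0.03), and the Chrne call was lost in 7 of the 10 fits without 1 array, all but those without control replicates 1 or 3 or 1-week replicate 3.

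Neither Myh3 nor any other of the muscle genes named above passed in the one-way analysis of variance. That analysis used only the 10 control and 1-week arrays and did not pool the spread across genes.

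**Figure D3:**
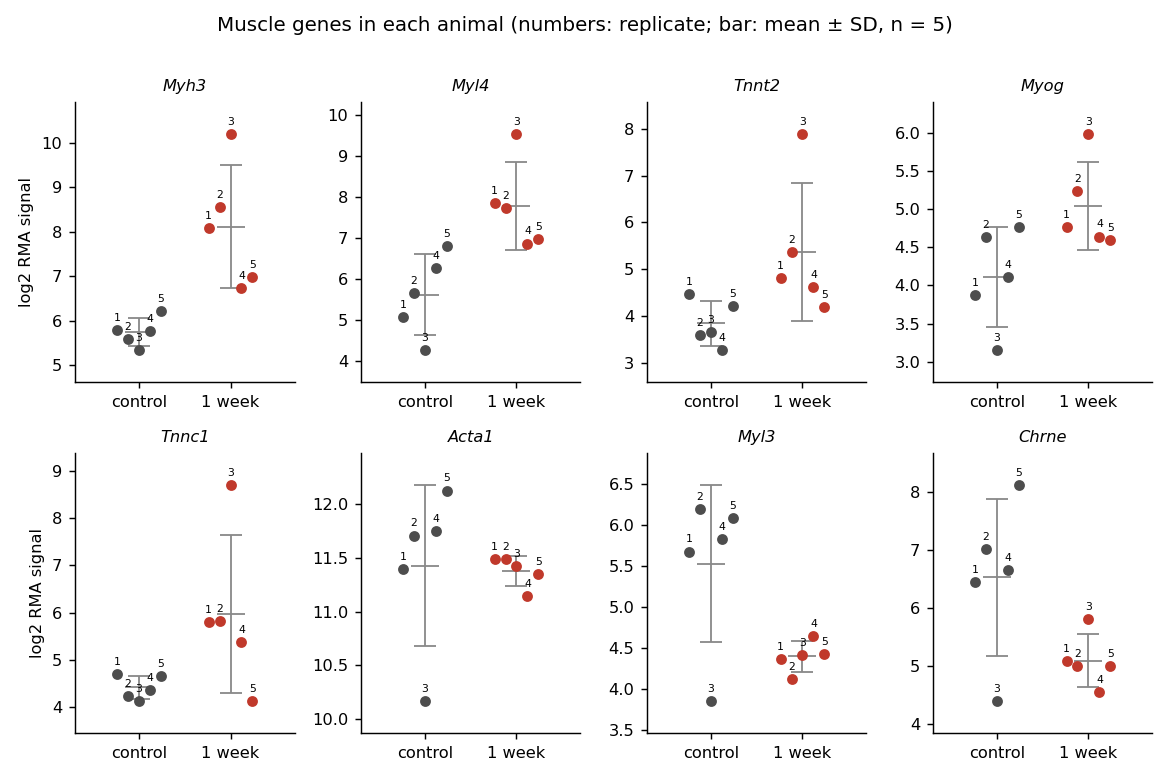
Log2 RMA signal of 8 muscle genes in each control and 1-week animal, numbered by replicate, with the mean ± SD of 5 animals. Replicate 3 of the 1-week group has the highest Myh3, Myl4, Tnnt2, Myog and Tnnc1, and control replicate 3 the lowest Acta1, Myl3 and Chrne of the controls.

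Cell cycle genes gave 1 call in 35, beside 21.3% of all probe sets called in either direction. That call was Birc5 (survivin), which rose from 5.07 ± 0.29 to 5.97 ± 0.18 (SD, n = 5 each, adjusted p = 0.00074) and by 1.45 with the hybridization control covariate (adjusted p = 0.046).

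Some genes of blood and macrophages rose. Of 12 erythroid genes 4 rose, beside 11.2% of all probe sets, and 8 did not pass. The beta-globin gene Hbb read 7.18, 6.83, 6.66, 5.89 and 7.61 in controls and 9.05, 9.90, 9.29, 8.87 and 7.93 at 1 week, without overlap, a rise of 2.18 log2 units (SE 0.35, adjusted p = 0.00026). Hbbl1 and Hbb-bs, near-identical globin genes whose probes may read the same transcripts, rose by 2.09 and 1.97 (adjusted p = 0.00014 and 0.00015). Alpha-globin (Hba-a1) rose by 0.96 (adjusted p = 0.022), a call lost without control replicates 3 or 4 or 1-week replicate 2. Gata1, the erythroid transcription factor, and Slc4a1, the red cell anion exchanger, rose to 2.93 and 3.83 log2 units, at or near the level of the background probes. The mean over the erythroid list ran from 3.72 to 4.26 in controls and from 4.27 to 4.65 at 1 week, and the part of blood left in the tissue was not tested.

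Of 26 macrophage genes 6 rose, 1 fell and 19 did not pass, beside 11.2% of all probe sets that rose and 10.2% that fell. Without control replicate 3, 4 rose and 2 fell. Cathepsin K (Ctsk), a collagen-degrading protease of macrophages and osteoclasts that fibroblasts also make, read 6.36, 6.14, 5.93, 6.61 and 6.24 in controls and 7.95, 7.91, 8.10, 7.57 and 7.61 at 1 week. The groups did not overlap, and the rise was 1.57 log2 units (SE 0.19, adjusted p = 1.6e-05). The complement starters C1qa and C1qc rose by 0.87 and 0.92 and the fractalkine receptor Cx3cr1 by 0.84 (adjusted p = 0.0018, 0.011 and 0.01), whereas the lipopolysaccharide coreceptor Cd14 fell by 1.17 (adjusted p = 0.0029). Lyz2, the brightest macrophage gene, changed by 0.13 (adjusted p = 0.82), with a sign that turned without control replicate 3 (-0.14).

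Other immune lists gave few calls. None of 24 T and NK cell genes and none of 25 interferon-stimulated genes passed, beside 21.3% of all probe sets. The mean over the T and NK list ran from 3.64 to 4.49 in controls and from 3.82 to 4.31 at 1 week. The negative control probes averaged 3.80 and 3.55, which limits what the lack of calls in this list can show. Of 19 MHC and antigen processing genes 3 rose, beside 11.2% of all probe sets. Without control replicates 1 or 3 or 1-week replicate 4, 1 rose. RT1-Bb, a class II beta chain, rose by 1.23 (adjusted p = 0.0004). Mast cell chymase (Cma1) rose from 3.32 ± 0.20 to 4.69 ± 0.53 (SD, n = 5 each, adjusted p = 0.00023). Of 12 mast cell genes it alone passed, beside 21.3% of all probe sets. Of 21 neutrophil and acute inflammatory genes 1 rose and 2 fell, beside 11.2% and 10.2% of all probe sets. Of 28 chemokines and receptors 2 fell and 26 did not pass, with a median of 0.12 log2 units. Ptgs2, the inducible prostaglandin synthase, fell by 1.59, the monocyte receptor Ccr2 by 1.48 and the gene of the chemokine fractalkine, Cx3cl1, by 1.14 (adjusted p = 0.0018, 0.016 and 0.0015). Of 14 complement genes 3 rose and 1 fell, beside 11.2% and 10.2% of all probe sets. Complement C4b rose by 0.98 (adjusted p = 0.00051). Complement C3 fell by 1.26 (adjusted p = 0.028), a call lost in 6 of the 10 fits without 1 array (without control replicates 2 or 4 or 1-week replicates 1 to 4). Of 25 endothelial genes 2 rose (Angpt2 and Cldn5) and 2 fell, beside 11.2% and 10.2% of all probe sets. The list median was -0.09 log2 units. The genes that fell were the receptors Kdr and Flt1, by 0.74 and 0.66 (adjusted p = 0.0034 and 0.019). The Flt1 call was lost without control replicate 5 or 1-week replicate 5 (adjusted p up to 0.055).

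Genes of epithelial junctions, transport, detoxification and glands fell more often than they rose, while those of keratins and the cornified envelope gave few calls. Of 22 epithelial junction genes 9 fell and none rose (median -0.59 log2 units), of 22 water and ion transport genes 8 fell and 1 rose (median -0.55), of 22 xenobiotic-metabolizing enzymes 9 fell (median -0.62), and of 23 gland and airway secretory products 7 fell and 2 rose (median -0.49). These stand beside 10.2% of all probe sets that fell. The numbers were 4 for gland products without control replicate 1 and 5 for xenobiotic enzymes without control replicate 1 or 2. In a one-way analysis of variance of the control and 1-week arrays alone they came to 2, 2, 1 and 0 in the order above. The controls were uneven. In the junction, transport and xenobiotic lists, the means of control replicates 3 and 5 lay within the range of the 1-week animals. They were 7.01 and 6.87 (1 week 6.42 to 7.05), 5.80 and 5.66 (5.48 to 5.81), and 6.46 and 6.42 (6.24 to 6.62). Control replicates 1, 2 and 4 lay above that range in each of these lists.

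Ceacam1, an adhesion molecule of epithelia, read 9.78, 8.48, 8.67, 8.51 and 7.78 in controls and 5.83, 4.85, 4.68, 4.42 and 6.52 at 1 week. Every injured animal lay below every control, and the fall was 10.4-fold (log2 fold change -3.38, SE 0.55, adjusted p = 0.00026). The genes named for the largest falls, Ceacam1 among them, were picked from probe sets that passed without overlap. The lack of overlap in Ceacam1 therefore follows from that choice. Of the 1528 probe sets that fell, 520 did not overlap (3.46% of all probe sets). E-cadherin (Cdh1), the adherens junction protein of epithelia, read 9.78, 9.91, 9.08, 9.73 and 9.08 in controls and 8.77, 8.27, 8.60, 8.50 and 9.23 at 1 week, a fall of 0.84 (log2 fold change -0.84, adjusted p = 0.0026) in which replicate 5 overlapped the controls. Cldn3, a tight junction claudin, fell by 0.94 (adjusted p = 0.0063). Of 27 genes of keratins, the cornified envelope and desmosomes 1 rose, 2 fell and 24 did not pass, with a median of 0.16 log2 units. These rises and falls stand beside 11.2% and 10.2% of all probe sets. The desmosomal plakophilin Pkp3 rose by 0.53, and Jup, plakoglobin, and Sprr1a, a cornified envelope precursor, fell by 0.64 and 1.35 (adjusted p = 0.0087, 0.0093 and 0.014). The sign of Sprr1a turned with the hybridization control covariate (0.07). None of 17 motile cilia genes passed, beside 21.3% of all probe sets.

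Of 16 mucosal antimicrobial and defence genes 2 fell, Pla2g2a and Lcn2, and none rose. That share was near the 10.2% of all probe sets that fell. Pla2g2a, a bactericidal phospholipase, read 8.76, 9.79, 8.84, 9.65 and 10.24 in controls and 6.62, 7.20, 4.95, 6.57 and 7.92 at 1 week, a fall of 2.81 (log2 fold change -2.81, SE 0.55, adjusted p = 0.0013). Lcn2, lipocalin 2, which binds bacterial siderophores, read 8.35, 7.34, 6.69, 7.18 and 9.77 in controls and 5.13, 4.88, 4.36, 4.75 and 6.58 at 1 week, a fall of 2.73 (log2 fold change -2.73, adjusted p = 0.0032). Neither gene overlapped between groups. Both were among the largest falls picked from probe sets without overlap, so their lack of overlap also follows from that choice. Replicate 5 was the highest in both groups for both genes. Serpina3n, an acute-phase protease inhibitor, fell by 2.25 (adjusted p = 0.00058).

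Gland products varied widely among the controls. Bpifa2f, a salivary and airway secretory protein, read 11.04, 10.83, 5.12, 4.70 and 6.66 in controls and 3.20, 3.25, 2.98, 4.42 and 3.12 at 1 week. The injured animals lay near the background probes, and the controls spanned over 6 log2 units, with replicates 1 and 2 high. The fall was 4.28 (log2 fold change -4.28, SE 0.95, adjusted p = 0.0031). Dmbt1, a mucosal scavenger protein, fell by 2.85, Smgc, a submandibular gland protein, by 2.30, and Pigr, the carrier of secreted IgA, by 1.49 (adjusted p = 0.0011, 0.0037 and 0.011). Klk1b3, a glandular kallikrein, fell from 4.76 ± 0.93 to 2.76 ± 0.25 (SD, n = 5 each, adjusted p = 0.00015). Gastric lipase (Lipf) fell by 3.17 (adjusted p = 0.038), a call lost in 8 of the 10 fits without 1 array, all but those without control replicate 4 or 1-week replicate 4. Scgb3a2, an airway secretoglobin, rose by 1.83 (adjusted p = 0.0047). The mean over the gland list ran from 5.37 to 7.20 in controls and from 5.08 to 5.92 at 1 week, and how much gland each dissection held was not tested.

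Transport and detoxification genes of the epithelium followed. Aquaporin 3 (Aqp3), the water and glycerol channel of squamous epithelium, read 9.77, 9.98, 9.64, 9.75 and 9.04 in controls and 9.03, 8.52, 8.73, 8.58 and 8.82 at 1 week, a fall of 0.90 (log2 fold change -0.90, SE 0.19, adjusted p = 0.002) with the groups just apart. The chloride channel Ano1 fell by 1.27 and the cotransporter Slc12a2 by 0.70 (adjusted p = 0.0075 and 0.0096), while Aqp1, the water channel of vessels, rose by 0.74 (adjusted p = 0.0018). The groups overlapped for Ano1 and Aqp1. The cytochrome Cyp2s1 fell by 1.21 and the monooxygenase Fmo2 by 1.23 (adjusted p = 0.00055 and 0.013).

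**Figure D4:**
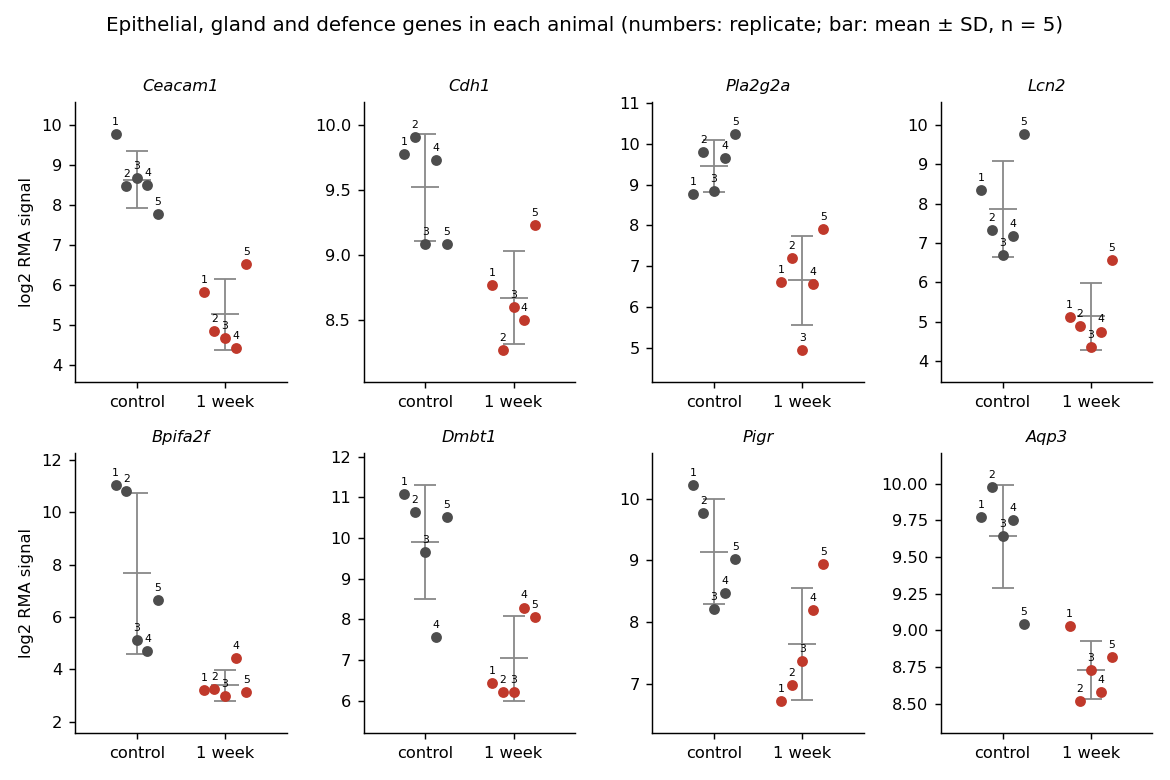
Log2 RMA signal of 8 epithelial, defence and gland genes in each control and 1-week animal, numbered by replicate, with the mean ± SD of 5 animals. Ceacam1, Pla2g2a, Lcn2, Bpifa2f and Aqp3 do not overlap between groups, and control Bpifa2f runs from 4.70 to 11.04.

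Among metabolic genes Pnpla2, adipose triglyceride lipase, read 7.59, 8.06, 7.09, 7.83 and 8.57 in controls and 6.61, 6.65, 6.29, 6.23 and 6.74 at 1 week, a fall of 1.32 (log2 fold change -1.32, SE 0.21, adjusted p = 0.00018) without overlap. The uncoupling protein Ucp2 fell by 0.84 (adjusted p = 0.00029). Of 22 adipocyte genes, Pnpla2 among them, 4 fell and 2 rose (G0s2 and Lep), beside 10.2% and 11.2% of all probe sets. Adiponectin (Adipoq) fell by 1.90 (adjusted p = 0.038), but it was high in control replicates 2 and 4 only, the call was lost in 7 of the 10 fits without 1 array (all but those without control replicates 1, 3 or 5), and the sign turned with the hybridization control covariate (0.46). Of 28 fatty acid oxidation genes 5 fell and 1 rose, beside 10.2% and 11.2% of all probe sets. The number that fell ran from 1 to 8 when 1 array was left out, and was 8 without control replicate 3. Of 40 respiratory chain genes 6 rose, beside 11.2% of all probe sets, with a list median of 0.33. Among them was Uqcrq of complex III (1.18, adjusted p = 0.0042). The count was 13 without control replicate 5, and 5 rose and 1 fell without control replicate 3, with a median of 0.06.

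Of 21 immediate early genes, which respond to a stimulus within minutes, 4 fell and none rose (median -0.17 log2 units), and 3 fell without control replicate 3 (median 0.01), beside 10.2% of all probe sets that fell. Zfp36, which destabilizes inflammatory transcripts, read 7.97, 8.50, 8.38, 7.83 and 8.98 in controls and 6.53, 7.57, 6.37, 6.27 and 6.59 at 1 week, a fall of 1.67 (log2 fold change -1.67, SE 0.27, adjusted p = 0.00024). The phosphatase Dusp1 fell by 1.20 (adjusted p = 0.0028). Replicate 2 was the highest of the injured animals for both genes. Egr1 fell by 0.92 (adjusted p = 0.037), a call lost in 6 of the 10 fits without 1 array (without control replicates 2, 3 or 5 or 1-week replicates 1, 3 or 4). Of 15 circadian clock genes 2 fell, a share near that of all probe sets, and 4 fell without control replicate 3. Clock fell from 8.61 ± 0.29 to 7.54 ± 0.25 (SD, n = 5 each, adjusted p = 7.3e-05). Per3 fell by 1.06 (adjusted p = 0.02), lost without control replicates 1 or 2 or 1-week replicate 4 (adjusted p up to 0.07). The time of day at which the tissue was taken is not given in the sources used here, and its part was not tested.

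Of 19 anterior pituitary genes 6 fell and none rose, beside 10.2% and 11.2% of all probe sets. Prolactin (Prl) read 12.38, 12.10, 10.79, 10.76 and 11.16 in controls and 3.52, 4.07, 3.64, 4.78 and 3.42 at 1 week. The controls were all bright, replicate 4 was the highest of the injured animals, and the fall was the largest of all probe sets tested (log2 fold change -7.55, SE 0.30, adjusted p = 7.6e-14). Growth hormone (Gh1) fell by 2.89, the glycoprotein hormone alpha chain Cga by 1.13, secretogranin Scg2 by 2.27 and galanin (Gal) by 2.79 (adjusted p = 0.00014, 0.013, 0.0014 and 0.00059). For these 4 genes the controls were uneven, and control replicate 1 was the highest in each. The log2 of the summed signal of the list ran from 11.03 to 12.77 in controls and from 8.14 to 8.69 at 1 week, and how these transcripts came to be in the control samples was not tested. Other large falls were those of Cox16, a complex IV assembly factor (1.88, adjusted p = 6.2e-06), and Ncbp2, a cap-binding subunit (2.28, adjusted p = 0.0029).

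To see which 1-week levels differed from later healing, the 1-week animals were set against 5 animals at 4 weeks and 5 at 8 weeks, groups in which the hybridization controls overlapped. The control arrays do not enter these differences but do enter the estimate of the spread. At 4 weeks 19 probe sets (0.126%) were lower than at 1 week and 0 higher, and at 8 weeks 30 (0.199%) were lower and 5 (0.0332%) higher. Leaving out 1 array moved these totals between 6 (without 1-week replicate 1 or 3) and 46 (without 1-week replicate 4) at 4 weeks, and between 6 (without 8-week replicate 2) and 41 (without 1-week replicate 4 or 5) at 8 weeks. All 19 probe sets lower at 4 weeks and 27 of the 30 lower at 8 weeks had been higher than control at 1 week, and since both comparisons use the 1-week arrays these counts are a description.

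Of the 46 matrix genes that rose at 1 week 9 were lower at 4 weeks and 14 at 8 weeks. They were chosen on the same 1-week arrays, which favours lower values at the later times, so these counts too are a description. Cthrc1 averaged 5.37 ± 0.38 at 4 weeks and 4.96 ± 0.30 at 8 weeks (SD, n = 5 each), against 8.03 ± 1.04 at 1 week and 4.89 ± 0.26 in controls (adjusted p = 0.00032 and 5.4e-05 against 1 week). Thbs2 averaged 4.86 ± 0.25 and 5.06 ± 0.49 (adjusted p = 0.00032 and 0.0011), against a control mean of 4.36. The later Cthrc1 and Thbs2 means lay far nearer to the controls than to 1 week. Eln averaged 8.07 ± 0.43 and 8.20 ± 0.16, below 1 week (adjusted p = 0.00047 and 0.0014) and above the control mean of 7.27. Postn, Col1a1, Ltbp2 and Loxl2 were also lower at both times, by 1.83, 1.02, 1.12 and 1.12 log2 units at 4 weeks.

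Igf2 averaged 4.94 ± 0.21 at 4 weeks and 4.94 ± 0.29 at 8 weeks, against 6.80 ± 0.57 at 1 week (adjusted p = 0.0017 and 0.0016). Those later means lay below the control mean of 5.61. Igfbp6 averaged 7.29 ± 0.59 and 7.45 ± 0.50, and Ceacam1 6.77 ± 1.63 and 6.84 ± 0.40 (SD, n = 5 each). Neither differed from 1 week (adjusted p = 0.21 and 0.35 for Igfbp6, 0.39 and 0.33 for Ceacam1). Myh3 at 4 and 8 weeks was 1.61 and 1.73 log2 units below 1 week, which did not pass (adjusted p = 0.14 and 0.11). The B cell chemokine Cxcl13, which did not pass between 1 week and control, was 2.93 higher at 8 weeks than at 1 week (adjusted p = 0.011).

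**Figure D5:**
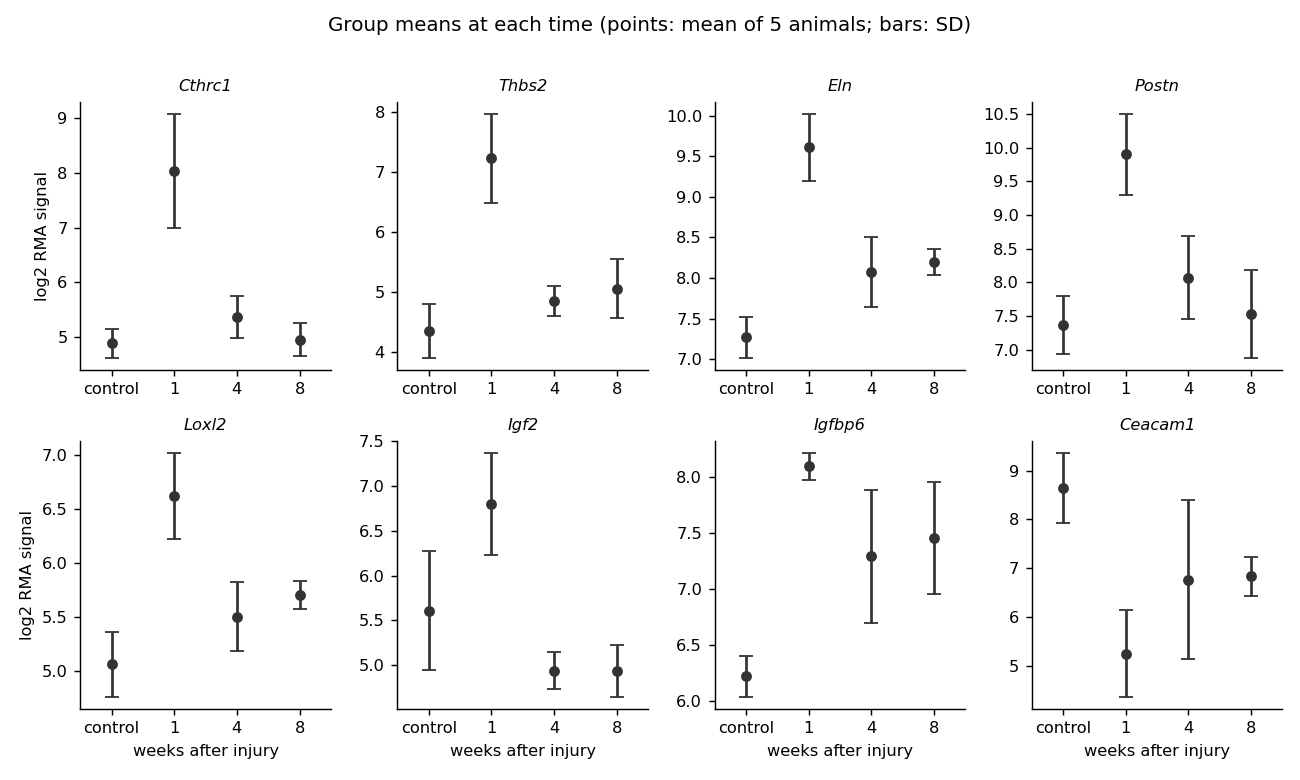
Mean log2 RMA signal ± SD (n = 5 animals per group) of 8 genes in control folds and at 1, 4 and 8 weeks. Cthrc1 and Thbs2 have their highest mean at 1 week and are at 4.96 and 5.06 at 8 weeks, while Eln is at 8.20.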

How the data were processed

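Values deposited by the authors are log2 RMA signals, which correct background within an array and combine the probes of a probe set. For the step between arrays the methods name global scaling and the labels Affymetrix Expression Console. The values ran from 0.63 to 12.84 and carry no detection calls, so whether a dim probe set was expressed is open. Precision is limited by the number of arrays. Groups were taken from the sample labels, and 9822 rows without a gene symbol were left out.

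Differences were tested with limma 3.58.1 (lmFit and eBayes) in R 4.3.3, with all 20 arrays in 1 fit and Benjamini-Hochberg adjustment over 15049 probe sets within each of 3 comparisons (1 week against control, 4 and 8 weeks against 1 week), at a threshold of 0.05. Arrays of a group came from different animals. The 47 gene lists are described by counts and medians. The procedure was tested on simulated data.

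Named are Cthrc1, Postn, Eln and Myh3, the 12 largest rises and 12 largest falls among probe sets that passed without overlap, and from each list the brightest member and up to 4 of those that passed, by lowest adjusted p. A gene with several probe sets is represented by the brightest. The text marks genes named otherwise. The comparison, members and lists were chosen with earlier results of these data known.

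Alternatives were array weights, median centring, quantile normalization, a fit of 2 groups, an intensity trend, a replicate block, removal of the dimmest 25%, the mean over probe sets, one-way analysis of variance, all probe sets, a hybridization control covariate, a fold threshold and leaving out each array. The methods name a one-way analysis of variance over all groups. Here it used only the 10 arrays of the 2 groups compared and did not moderate variances. Promoters came from RefSeq (GRCr8), and figures were drawn with matplotlib 3.10.9 in Python 3.11.15.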

Additional observations from a re-analysis of the deposited data

Results flagged for a closer look

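Of 290 groups of 5 values examined, 20 held an array far from the other 4, and a rate of 1 in 20 groups would give 14.5. The genes were mostly chosen by their test results and share the same 10 arrays, so 14.5 is not what chance would give here. Of the 20 groups with such an array 12 were control groups and 8 were 1-week groups. Control replicate 3 and 1-week replicate 4 each accounted for 6. Control replicate 3 was high in Thbs2 (5.15) and low in Col5a1 (6.52), Serpinh1 (7.76), Timp3 (8.10), Myl3 (3.86) and the array median (4.58). Replicate 4 at 1 week was low in Col14a1 (7.55), Mfap5 (9.73), Mmp2 (9.97), Egf (2.56) and C1qtnf2 (6.48) and high in Bpifa2f (4.42). Replicate 2 at 1 week was high in Col1a1 (10.66) and Zfp36 (7.57). The other controls set apart were replicate 1 in Spp1 (3.75), replicate 4 in C4b (7.52) and Lipf (8.79), and replicate 5 in Chrd (5.02), Ptgs2 (8.49) and Krt15 (10.67).

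Later times differed from 1 week for matrix and fibroblast genes, by limma with adjusted p under 0.05. At 4 weeks the differences in log2 units were -2.66 for Cthrc1, -2.36 for Thbs2, -1.83 for Postn, -1.55 for Eln, -1.53 for Col8a1, -1.12 for Ltbp2, -1.12 for Loxl2, -1.02 for Col1a1 and -0.91 for Loxl1. At 8 weeks they were -3.07 for Cthrc1, -2.38 for Postn, -2.17 for Thbs2, -1.54 for Aspn, -1.42 for Eln, -1.28 for Spp1, -1.24 for Col1a1, -1.18 for Plod2, -1.11 for Col3a1, -1.06 for Fbn2, -1.04 for Ltbp2, -0.92 for Loxl2, -0.83 for Sparc and -0.64 for Col5a1. Among fibroblast, signalling and protease genes, Lrrc15 differed by -2.40 at 8 weeks. Lrrc17 differed by -1.25 and -1.13 at 4 and 8 weeks, Fstl1 by -0.93 and -0.89, Igf2 by -1.85 and -1.86, and Ctsk by -0.95 and -0.94. Among genes named outside the rule, Maged2 differed by -0.95 and -0.78, Ndn by -1.07 and -0.95, Cdkn1c by -1.06 at 4 weeks and Mest by -1.33 at 8 weeks. Cxcl13 and Clu, a secreted chaperone named outside the rule, were higher at 8 weeks than at 1 week, by 2.93 and 0.90.

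Among probe sets without a gene symbol, 1909 (23.45% of 8139) differed between 1 week and control. The hybridization control mean was 0.94 log2 units higher at 1 week than in controls, without overlap.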

How the results depend on the processing

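The 3209 probe sets that differed between 1 week and control came to 2372 (without control replicate 2) to 3966 (without control replicate 3) when 1 array was left out. They came to 5214 with array weights, 1645 in one-way analysis of variance, 5189 over all probe sets, 433 with a fold threshold and 82 with the hybridization control covariate (2314 at an unadjusted p under 0.05), of which 78 were also called in the same direction without it. Without control replicate 3, 1356 of the 1681 higher and 1506 of the 1528 lower probe sets were shared. Array weights gave 2126 higher and 3088 lower, and one-way analysis 1056 higher and 589 lower. The other settings gave 2629 to 3786. Between 4 weeks and 1 week (19), the count was 54 with quantile normalization and with median centring, and 6 to 46 without 1 array. Between 8 weeks and 1 week (35), it was 60 with quantile normalization, 54 with median centring and 6 to 41 without 1 array. Each array came from a different animal, so replicate numbers were not taken as pairs. Same-numbered control and 1-week arrays correlated between -0.231 and -0.0462 in their deviations from the group means. Arrays with different numbers correlated between -0.163 and 0.198. Such correlations cannot show whether same-numbered arrays shared a run. With the replicate block the counts were 2994, 18 and 18, and of 135 called genes named here Myog alone was lost. Quantile normalization lost Lipf and Egr1, median centring and array weights lost none, one-way analysis lost 51 and the hybridization control covariate kept 15. Signs turned with that covariate for Dcn (-0.0673), Acta2 (-0.24), Nog (-0.152), Myog (-0.0677), Sprr1a (0.0747), Adipoq (0.457), Cxcl13 (0.378), Cd44 (0.0378) and Lyz2 (-0.69). Acta2 also turned with array weights (-0.0862) and without control replicate 3 (-0.0698), 1-week replicate 2 (-0.0407) or 1-week replicate 3 (-0.0265), in a range up to 0.122 (without 1-week replicate 1). Acta1 turned with quantile normalization (0.0888) and without control replicate 2 (0.0192), 4 (0.0284) or 5 (0.125) or 1-week replicate 4 (0.00782), in a range down to -0.366 (without control replicate 3). Lyz2 turned without control replicate 3 (-0.14) and ran up to 0.426 (without control replicate 5). The causes were not tested. Array signals near the background probes, as for Gata1, Bpifa2f and Prl at 1 week, limit what a fold change there can show.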

Other observations

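A set of imprinted genes, which are expressed from 1 parental copy and many of which are active in growing tissue, was examined after their values had been seen. Of 12 measured, 5 rose at 1 week and none fell, beside 11.2% of all probe sets that rose, with a median of 0.34 log2 units. Without control replicate 3, 5 rose and 2 fell (median 0.22). Igf2 rose by 1.19, Peg12 by 0.98, Cdkn1c, a cell cycle inhibitor, by 0.80, Ndn (necdin), a growth suppressor, by 0.79 and Nnat by 0.56 (limma adjusted p = 0.0034, 0.0014, 0.011, 0.0027 and 0.0087). Mest changed by 0.54 and Dlk1 by 0.14 (adjusted p = 0.098 and 0.7). At 4 weeks Igf2, Ndn and Cdkn1c were lower than at 1 week, and at 8 weeks Igf2, Ndn and Mest. With the hybridization control covariate none of the 12 passed. Maged2, which was also chosen after its values were seen, rose by 1.31 (adjusted p = 2.9e-06) and by 1.43 with that covariate (adjusted p = 0.021).

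Genes of ribosomal proteins were also chosen after their values were seen. Of 74 measured, 48 rose at 1 week and 1 fell, beside 11.2% and 10.2% of all probe sets. Their median was 0.57 log2 units, and their array means ran from 8.22 to 8.78 in controls and from 9.01 to 9.21 at 1 week. Without control replicate 3 the counts were 46 and 2, and with the hybridization control covariate 0 and 0 at a median of 0.49.

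Clu, a secreted chaperone, read 10.37, 10.48, 9.77, 10.40 and 10.93 in controls and 9.12, 8.87, 9.20, 9.10 and 9.26 at 1 week, a fall of 1.28 log2 units (log2 fold change -1.28, adjusted p = 5.9e-05), and averaged 10.01 ± 0.34 (SD, n = 5) at 8 weeks.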
